A study of Mus musculus with 6 samples.

Results

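Insulin-like growth factor 1 (IGF1) signalling and its extracellular binding proteins were examined in muscle stem cells (MuSCs) through 10 genes: the ligand Igf1, its receptor Igf1r, the receptor adaptors Irs1 and Irs2, and the binding protein genes Igfbp2, Igfbp3, Igfbp4, Igfbp5, Igfbp6 and Igfbp7. The genes were chosen by symbol, with earlier results of these data known, and all 10 of them were found among the 22706 genes of the table. IGF1 binds its receptor tyrosine kinase at the cell surface, the activated receptor phosphorylates the IRS adaptors, and these recruit PI3K and start AKT and mTOR signalling, which in muscle promotes growth, while AKT holds FOXO transcription factors out of the nucleus. IGF binding proteins are secreted, hold IGFs in the extracellular space and are cut by proteases that release the ligand. In muscle, IGFs support the proliferation and the differentiation of myogenic cells.

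The RNA came from freshly isolated MuSCs of 3 groups with 2 libraries each. Control mice were wild type. Mdx mice, used to model Duchenne muscular dystrophy, lack functional dystrophin through a spontaneous mutation. Sirt6mKO/mdx mice are mdx mice in which loxP-flanked Sirt6, the gene of a histone deacetylase, is removed by a Cre recombinase expressed constitutively under the Pax7 promoter, so that the whole Pax7 lineage carries the deletion and not only adult MuSCs. The labels give C57BL/6 as the strain of every sample, and the study states that mice were kept on this background, although the mdx stock it names is C57BL/10. The labels give no age. The legends of the study describe adult male mice. The methods of the study call the replicates of its RNA-seq biological, without saying how many animals went into a library. The p-values rest on the spread between these libraries, drawn towards a spread estimated over all genes.

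Libraries held 4396576 to 9746288 approximate reads and 18983 to 20614 genes above 0. The values are normalized read counts, that is, reads per gene divided by a factor for each library and rounded. The 12 MuSC markers had summed values of 26127 to 35684 in every library. Sirt6 itself had 41 and 32 in control, 33 and 40 in mdx, with 37 and 30 in Sirt6mKO/mdx, so its value per gene did not set the libraries labelled Sirt6mKO/mdx apart. Xist, the RNA of the inactive X chromosome, had 16772 and 12950 in control and 7 to 34 in the other libraries, and the Y-linked gene Ddx3y had 3 and 8 in control and 1024 to 1767 in the others. The control libraries thus carried a female pattern, which goes against the male mice of the legends, and the other 4 a male pattern. Sex and genotype therefore cannot be told apart in any comparison with control, while the mdx and Sirt6mKO/mdx libraries did not differ in this respect.

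In mdx against control, the called changes were a fall of the adaptor gene Irs2 and rises of Igfbp3 and Igfbp6. In Sirt6mKO/mdx against mdx, Irs2 rose, and Igf1, Igfbp3 and Igfbp5 fell. Relative to control, Igf1 and Igfbp5 were lower and Igfbp3 and Igfbp6 higher in Sirt6mKO/mdx. A gene was called when limma gave an adjusted p (Benjamini-Hochberg over all genes tested, two-sided) of at most 0.05 and a change of at least 2-fold. Folds are those of the fit on log2(value + 1), which averages logarithms, and differ somewhat from ratios of group means. Of 9 members tested, 3 were called in mdx against control (2 higher, 1 lower), where 14.2% of all 15915 genes tested were called (6.89% higher, 7.34% lower). In Sirt6mKO/mdx against mdx 4 of 9 members were called (1 higher, 3 lower) beside 8.17% of all genes (5.62% higher, 2.54% lower), and in Sirt6mKO/mdx against control 4 of 9 (2 higher, 2 lower) beside 7.87% (5.19% higher, 2.68% lower). Igfbp2 was too low to be tested. The 3 comparisons share libraries in pairs, so these counts do not stand apart from each other. The median log2 fold change of the members was -0.17, -0.13 and -0.27 in the 3 comparisons in this order, and that of all genes was 0.00, 0.02 and 0.01.

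**Figure D1:**
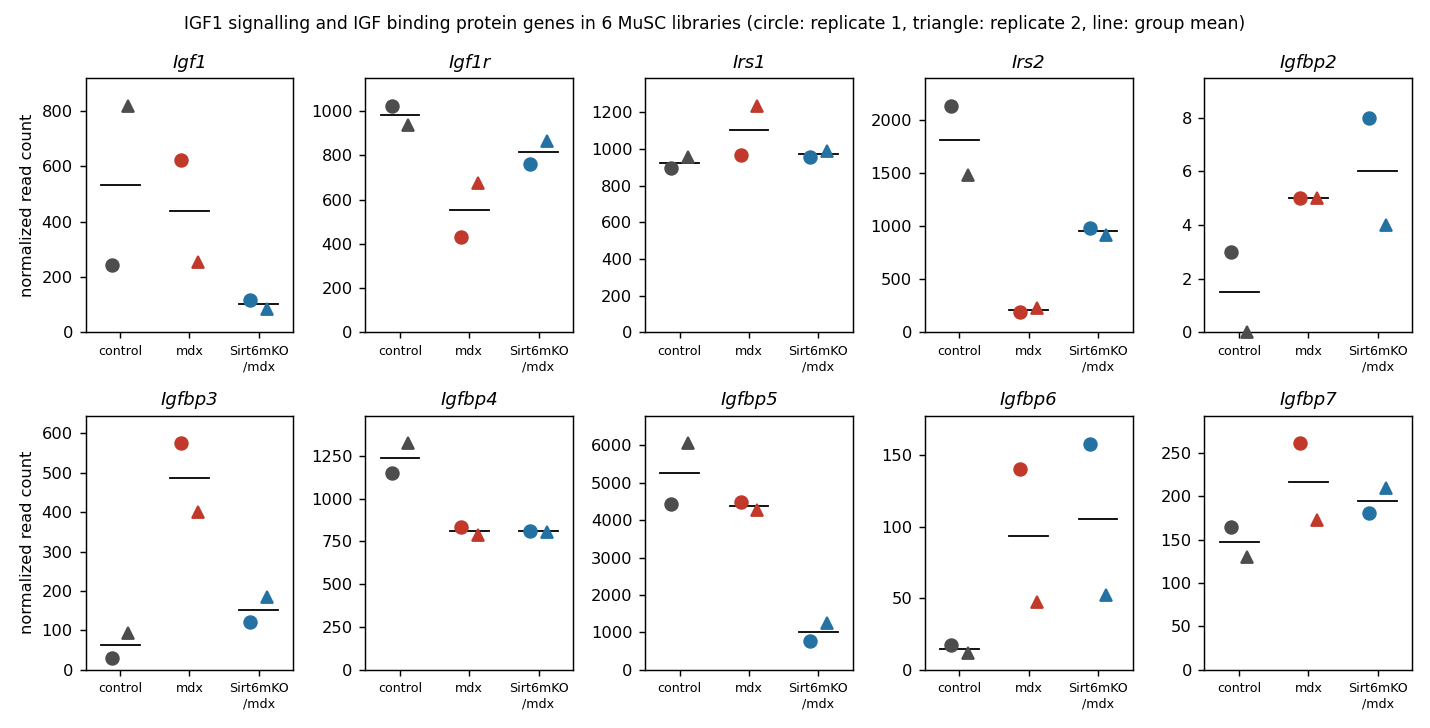
Normalized read count (linear axes from 0, a scale of its own for each gene) of the 10 genes in the 6 libraries. Circles are replicate 1, triangles replicate 2 and lines group means. Irs2 sits at 191 and 230 in mdx, below every other library, and Igfbp5 at 777 and 1242 in Sirt6mKO/mdx, below every other library.

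Igf1 encodes the ligand (ENSMUSG00000020053; GRCm38 chromosome 10, 87858265 to 87937042, plus strand). Its value was 243 and 819 in control, 623 and 253 in mdx, whereas it was 118 and 84 in Sirt6mKO/mdx. The libraries of control and of mdx were far apart and overlapped, and both Sirt6mKO/mdx libraries lay below all others. The mean fell from 438 ± 262 (SD, n = 2) in mdx to 101 ± 24.0 (SD, n = 2) in Sirt6mKO/mdx, a log2 fold change of -1.98 (SE 0.48, 95% interval -3.00 to -0.97, adjusted p = 0.019, limma). Against the control mean of 531 ± 407 (SD, n = 2) it was -2.15 (SE 0.48, adjusted p = 0.012, limma). Mdx against control gave -0.17 with an interval of -1.19 to 0.85 and no call. The call against mdx did not hold without any one of the 4 libraries compared (-1.34 without mdx replicate 1, -2.63 without mdx replicate 2, -2.23 without Sirt6mKO/mdx replicate 1, -1.74 without Sirt6mKO/mdx replicate 2), and the call against control did not hold without control replicate 2 (-1.28) or Sirt6mKO/mdx replicate 2 (-1.91). With a robust prior variance Igf1 was called in neither. Markers of macrophages and leukocytes, cells that also express Igf1, had summed values of 109 to 160 over 11 genes in control and mdx and of 211 and 228 in Sirt6mKO/mdx, with none of the 11 at 0 in all libraries, so this sum was higher where Igf1 was lower. In 8 tested genes of that list, 1 was called higher and 1 lower in mdx against control, 0 in Sirt6mKO/mdx against mdx and 1 higher in Sirt6mKO/mdx against control. The summed markers of fibro-adipogenic progenitors (12 genes) ran with Igf1 in part, at 16844 and 10103 in the mdx libraries, where Igf1 had 623 and 253, and at 11602 and 9744 in Sirt6mKO/mdx, against 14904 and 16457 in control. The part of either cell type in the Igf1 values was not tested. In sorted cells, less RNA per cell and fewer cells of a type that expresses the gene cannot be told apart.

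Igf1r encodes the receptor (ENSMUSG00000005533; chromosome 7, 67952859 to 68226780, plus strand). It had 1024 and 938 in control, 431 and 676 in mdx, with 761 and 866 in Sirt6mKO/mdx. Control libraries were highest, mdx libraries lowest, and no groups overlapped, which was true of 57.0% of all genes tested in mdx against control, of 56.0% in Sirt6mKO/mdx against mdx and of 51.6% in Sirt6mKO/mdx against control. The difference between mdx and control was -0.86 on the log2 scale (SE 0.26, 95% interval -1.42 to -0.30, adjusted p = 0.036, limma), short of the 2-fold minimum. It was past that minimum and called without mdx replicate 2 (-1.18). Sirt6mKO/mdx against mdx gave 0.59 (interval 0.03 to 1.15) and against control -0.27 (interval -0.83 to 0.29), and neither passed the test.

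Irs1 and Irs2 encode the adaptors that the receptor phosphorylates, and only Irs2 was called in any comparison. Irs2 (ENSMUSG00000038894; chromosome 8, 10986980 to 11008458, minus strand) had 2131 and 1480 in control, 191 and 230 in mdx, with 980 and 918 in Sirt6mKO/mdx. No groups overlapped, with control on top and mdx at the bottom. The mean of Irs2 was 1805.5 ± 460 (SD, n = 2) in control and 210.5 ± 27.6 (SD, n = 2) in mdx, and the fitted fall was 8.44-fold (log2 fold change -3.08, SE 0.26, 95% interval -3.62 to -2.53, adjusted p = 1.9e-06, limma). From mdx to Sirt6mKO/mdx, with a mean of 949 ± 43.8 (SD, n = 2), the fitted rise was 4.51-fold (log2 fold change 2.17, SE 0.26, 95% interval 1.63 to 2.72, adjusted p = 9.5e-05, limma). Both calls held without any one library. The libraries labelled Sirt6mKO/mdx did not reach the control level: their difference from control was -0.90 (interval -1.45 to -0.36, adjusted p = 0.038, limma), under the 2-fold minimum, and it was called without control replicate 2 (-1.17).

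Irs1 (ENSMUSG00000055980; chromosome 1, 82233101 to 82291416, minus strand) had 896 and 955 in control, 969 and 1235 in mdx, with 953 and 990 in Sirt6mKO/mdx. All 6 libraries lay close together and no comparison passed the test, with log2 fold changes of 0.24 (interval -0.28 to 0.76) in mdx against control, -0.17 (interval -0.69 to 0.35) in Sirt6mKO/mdx against mdx and 0.07 (interval -0.45 to 0.59) in Sirt6mKO/mdx against control. Levels of the adaptors were compared per kb of exon within each library. Irs2 exceeded Irs1 by a ratio of 3.44 and 2.24 in control, fell below it with 0.285 and 0.269 in mdx, and exceeded it again with 1.49 and 1.34 in Sirt6mKO/mdx. The order of both adaptors was thus turned over in mdx in both libraries. These ratios are given as a description and were not tested. An exact two-sided permutation test of 2 libraries against 2 cannot give a p below 0.333.

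Irs2 moved in the same direction as the immediate early response genes, such as Fos and Egr1, which respond within minutes to stimulation and to tissue dissociation. Summed over 15 such genes, the values were 77524 and 82767 in control, 10167 and 11989 in mdx, with 69243 and 69626 in Sirt6mKO/mdx. All 15 were called lower in mdx against control (median log2 fold change -3.23), all 15 were called higher in Sirt6mKO/mdx against mdx (median 3.02), and 2 were called lower in Sirt6mKO/mdx against control. The part of this response in the Irs2 values was not tested.

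The promoters of both adaptors are shown because both hold the same short motifs, while Irs2 was called in 2 comparisons and Irs1 in 0 of 3. Each line gives RefSeq sequence of GRCm38.p6 on the strand of the gene, 5′ to 3′, from 250 bases before to 50 bases after the RefSeq start, and capitals mark CACGTG, an E-box that basic helix-loop-helix factors bind, and TGTTTTG, the core of the insulin response element that FOXO factors bind.
Irs2 promoter, chr8:11008880-11009179, minus strand: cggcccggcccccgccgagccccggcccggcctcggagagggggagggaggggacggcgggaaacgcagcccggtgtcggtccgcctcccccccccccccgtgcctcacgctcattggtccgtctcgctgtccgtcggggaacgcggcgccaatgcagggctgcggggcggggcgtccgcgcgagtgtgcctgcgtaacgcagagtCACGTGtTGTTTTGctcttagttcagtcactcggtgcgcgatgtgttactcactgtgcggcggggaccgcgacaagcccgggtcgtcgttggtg
Irs1 promoter, chr1:82291390-82291689, minus strand: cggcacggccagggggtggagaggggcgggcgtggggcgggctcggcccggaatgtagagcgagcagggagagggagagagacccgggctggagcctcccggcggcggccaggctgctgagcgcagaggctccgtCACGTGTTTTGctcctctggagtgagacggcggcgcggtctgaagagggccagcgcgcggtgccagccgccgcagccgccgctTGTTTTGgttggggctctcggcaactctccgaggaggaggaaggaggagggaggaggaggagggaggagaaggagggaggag
In Irs2 the E-box started 44 bases and the insulin response core 37 bases before the start. In Irs1 the E-box started 115 bases before the start and overlapped an insulin response core at 111 bases, and another core lay at 32 bases. Searched on both strands, CACGTG was present in 7.15% and TGTTTTG in 6.28% of 32851 mouse promoter windows of this length, and none of the other 8 genes held TGTTTTG. The windows held 41 CpG in Irs2 and 28 in Irs1, against a median of 7 in all windows. A match of letters is a description and does not show that a factor binds.

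**Figure D2:**
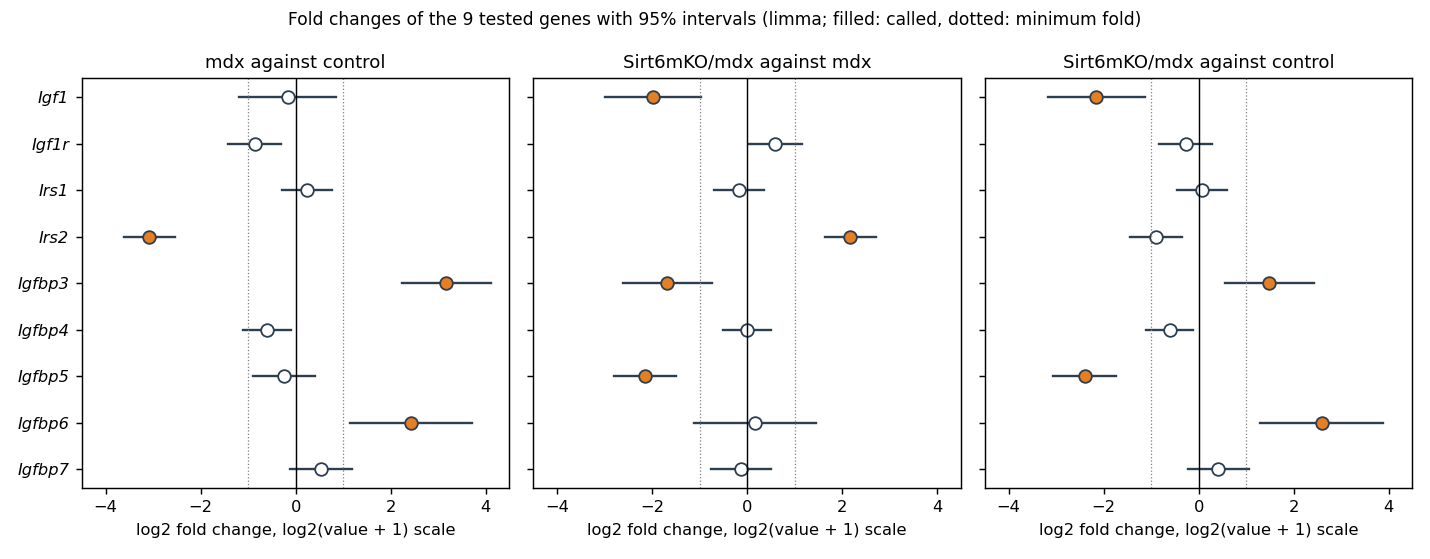
Log2 fold changes of the 9 tested genes with 95% intervals in the 3 comparisons (log2(value + 1) scale, limma). Filled circles are called genes and dotted lines the 2-fold minimum. Irs2 lies at -3.08 in mdx against control and at 2.17 in Sirt6mKO/mdx against mdx, and Irs1 stays within 0.24 of 0 in all 3.

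Among the binding protein genes, Igfbp5 had the highest level per kb of exon in control and mdx. IGFBP5 is secreted by myogenic cells and binds to extracellular matrix. Igfbp5 (ENSMUSG00000026185; chromosome 1, 72857932 to 72874884, minus strand) had 4444 and 6063 in control, 4490 and 4270 in mdx, with 777 and 1242 in Sirt6mKO/mdx. Control and mdx overlapped, and both Sirt6mKO/mdx libraries were far below. The mean fell from 4380 ± 156 (SD, n = 2) in mdx to 1009.5 ± 329 (SD, n = 2) in Sirt6mKO/mdx, and the fitted fall was 4.45-fold (log2 fold change -2.15, SE 0.31, 95% interval -2.81 to -1.50, adjusted p = 0.00053, limma). Against the control mean of 5253.5 ± 1145 (SD, n = 2) the fitted fall was 5.28-fold (log2 fold change -2.40, SE 0.31, 95% interval -3.06 to -1.74, adjusted p = 0.00021, limma). Both calls held without any one library. Mdx against control gave -0.25 (interval -0.90 to 0.41) and no call. The summed markers of smooth muscle and pericytes, 10 genes led by Notch3, which MuSCs express too, were also lowest in Sirt6mKO/mdx, at 4819 and 5069. Their sums were 9643 and 9135 for control, and mdx had 7837 and 9075. Of the 10, 1 was called lower in Sirt6mKO/mdx against mdx and 2 against control, and in mdx against control 1 was called higher and 1 lower. The sum mostly follows its abundant genes: 6 of the 10 had a positive log2 fold change in Sirt6mKO/mdx against mdx, with a median of 0.27 over the list, opposite to Igfbp5. The part of these cells in the Igfbp5 values was not tested.

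Igfbp3 encodes the main IGF carrier of serum and is also made locally in tissues (ENSMUSG00000020427; chromosome 11, 7206086 to 7213923, minus strand). It had 29 and 94 in control, 575 and 400 in mdx, with 121 and 184 in Sirt6mKO/mdx. No groups overlapped, and the Sirt6mKO/mdx libraries lay between control and mdx. The mean of Igfbp3 was 61.5 ± 46.0 (SD, n = 2) in control and 487.5 ± 124 (SD, n = 2) in mdx, and the fitted rise was 9.0-fold (log2 fold change 3.17, SE 0.44, 95% interval 2.23 to 4.11, adjusted p = 0.00019, limma). In Sirt6mKO/mdx, at 152.5 ± 44.5 (SD, n = 2), it was lower than in mdx by -1.68 on the log2 scale (SE 0.44, adjusted p = 0.028, limma) and higher than in control by 1.49 (SE 0.44, adjusted p = 0.047, limma). The first of these 3 calls held without any one library. The call against mdx did not hold without mdx replicate 1 (-1.42), mdx replicate 2 (-1.94), Sirt6mKO/mdx replicate 1 (-1.38) or Sirt6mKO/mdx replicate 2 (-1.98). The call of Sirt6mKO/mdx against control did not hold without control replicate 1 (0.66), mdx replicate 1 (1.49), mdx replicate 2 (1.49), Sirt6mKO/mdx replicate 1 (1.79) or Sirt6mKO/mdx replicate 2 (1.19), with a pseudocount of 0.1 (1.51), with voom on approximate reads (1.25) or with only the 2 groups in the fit (1.49). Markers of endothelial cells, which also express Igfbp3, had summed values over 10 genes of 970 and 858 in control, 467 and 478 in mdx, with 721 and 692 in Sirt6mKO/mdx, the opposite order, and of 9 tested 2 were called lower in mdx against control and 0 in either direction in the other comparisons. Most of each sum came from Tek (348 to 669). Pecam1, which encodes CD31, an antigen used to deplete cells, had 199 and 86 in control, 20 and 47 in mdx and, in Sirt6mKO/mdx, 67 and 114, and Cdh5 and Kdr were at 30 or below in every library. The part of these cells in the Igfbp3 values was not tested.

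The promoters of Igfbp3 and Igfbp5 are shown because these are the binding protein genes that were called lower in Sirt6mKO/mdx against mdx. They are RefSeq windows of the same length and build, and capitals mark matches of TATANA, the TATA box, searched on both strands.
Igfbp3 promoter, chr11:7213874-7214173, minus strand: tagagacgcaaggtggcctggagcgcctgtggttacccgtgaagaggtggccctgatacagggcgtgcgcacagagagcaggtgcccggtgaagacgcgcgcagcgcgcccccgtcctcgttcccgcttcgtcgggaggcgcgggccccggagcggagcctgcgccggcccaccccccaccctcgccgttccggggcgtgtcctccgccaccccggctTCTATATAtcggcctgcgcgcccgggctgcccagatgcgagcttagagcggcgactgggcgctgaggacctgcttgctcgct
Igfbp5 promoter, chr1:72874816-72875115, minus strand: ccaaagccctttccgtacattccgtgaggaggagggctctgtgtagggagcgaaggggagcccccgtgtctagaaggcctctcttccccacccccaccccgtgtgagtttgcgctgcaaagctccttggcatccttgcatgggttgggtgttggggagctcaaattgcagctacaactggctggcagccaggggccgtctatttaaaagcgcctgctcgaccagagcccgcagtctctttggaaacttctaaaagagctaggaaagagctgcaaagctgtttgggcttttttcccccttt
In Igfbp3, TATATA started 30 bases before the start, and an overlapping match on the other strand began 32 bases before it. Neither TATANA nor the 2 motifs marked in the Irs genes was found in the Igfbp5 window. The cAMP response element, spelled TGACGTCA, and the AP-1 motif, spelled TGANTCA, were also not found there, which says only that these letters are absent from these 300 bases. TATANA was present in 24.7%, TGACGTCA in 1.79% and TGANTCA in 7.81% of all windows. The Igfbp3 window held 37 CpG and that of Igfbp5 held 10. TGACGTCA was in none of the 10 genes' windows.

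Igfbp6, whose product prefers IGF2 over IGF1 (ENSMUSG00000023046; chromosome 15, 102144362 to 102149511, plus strand), had 17 and 12 in control, 140 and 47 in mdx, with 158 and 52 in Sirt6mKO/mdx. Control libraries were lowest and did not overlap with the others, whereas mdx and Sirt6mKO/mdx overlapped and each held a high replicate 1 and a lower replicate 2. From 14.5 ± 3.54 (SD, n = 2) in control the mean was 93.5 ± 65.8 (SD, n = 2) in mdx (log2 fold change 2.43, SE 0.60, 95% interval 1.15 to 3.71, adjusted p = 0.013, limma) and 105 ± 75.0 (SD, n = 2) in Sirt6mKO/mdx (log2 fold change 2.59, SE 0.60, 95% interval 1.3 to 3.87, adjusted p = 0.016, limma). The rise in mdx was not called without control replicate 2 (2.19) or mdx replicate 1 (1.65). The rise of Sirt6mKO/mdx over control was not called without control replicate 2 (2.35), Sirt6mKO/mdx replicate 1 (1.79) or Sirt6mKO/mdx replicate 2 (3.38), nor with voom on approximate reads (2.75). Sirt6mKO/mdx against mdx gave 0.16 with an interval of -1.12 to 1.44.

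The split of Igfbp6 between replicates was shared by markers of fibro-adipogenic progenitors, mesenchymal cells of muscle that the sort depletes through Sca1, the product of Ly6a. Pdgfra had 15 and 59 in control, 195 and 18 in mdx, with 142 and 19 in Sirt6mKO/mdx. Ly6a had 3 and 9 in control, 79 and 21 in mdx, with 65 and 15 in Sirt6mKO/mdx, and Lum had 82 and 82, 315 and 64, and 316 and 102 in the same order. In mdx and Sirt6mKO/mdx replicate 1 was the higher library for all of these genes. Over the whole list of 12 markers, led by Gsn, the sums were 14904 and 16457 in control, 16844 and 10103 in mdx, with 11602 and 9744 in Sirt6mKO/mdx, and 1 marker was called higher in mdx against control and 1 lower in each of the other comparisons. None of the 12 was at 0 in all libraries. The part of these cells in the Igfbp6 values was not tested. Tenocyte markers (7 genes) summed to 442 and 150 in mdx and 268 and 162 in Sirt6mKO/mdx, again higher in replicate 1, and to 147 and 187 in control, and of 6 tested 2 were called lower in mdx and 1 higher in Sirt6mKO/mdx against control.

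**Figure D3:**
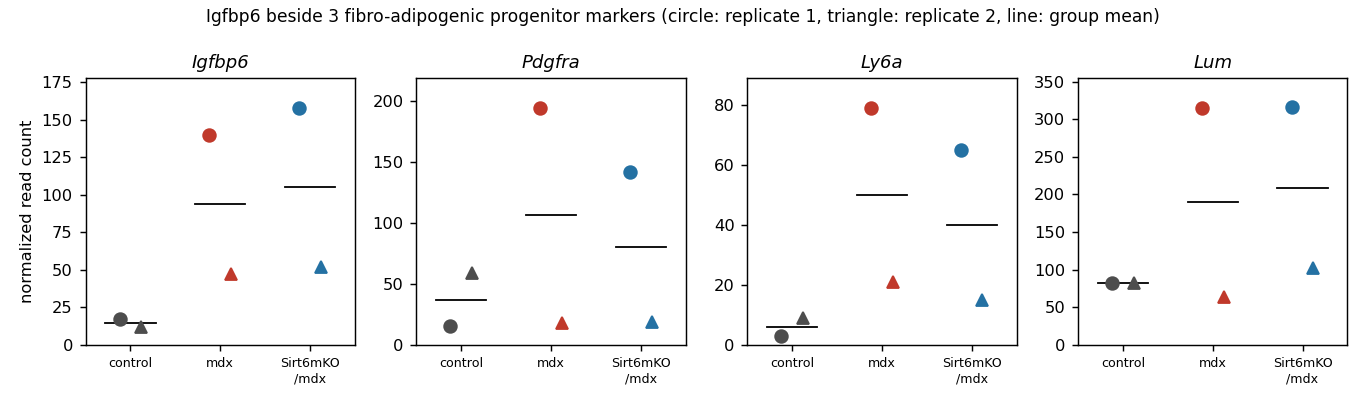
Normalized read count (linear axes from 0) of Igfbp6 and of 3 fibro-adipogenic progenitor markers in the 6 libraries. Circles are replicate 1, triangles replicate 2 and lines group means. In mdx and in Sirt6mKO/mdx replicate 1 lies above replicate 2 in all 4 panels, at 140 against 47 and at 158 against 52 for Igfbp6.

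Igfbp4, Igfbp7 and Igfbp2 were not called in any comparison. Igfbp4, a target of the protease pappalysin-1 (ENSMUSG00000017493; chromosome 11, 99041244 to 99054392, plus strand), had 1151 and 1325 in control, 836 and 789 in mdx, with 813 and 804 in Sirt6mKO/mdx. Both mutant groups lay below control without overlap, by -0.60 (interval -1.11 to -0.10, adjusted p = 0.095, limma) and -0.61 (interval -1.11 to -0.11, adjusted p = 0.13, limma), while their own difference was -0.01 (interval -0.51 to 0.50). Igfbp7, which encodes a protein of low affinity for IGFs (ENSMUSG00000036256; chromosome 5, 77349240 to 77408045, minus strand), had 165 and 130 in control, 261 and 173 in mdx, with 181 and 209 in Sirt6mKO/mdx. The highest value was in an mdx library, and the log2 fold changes of 0.53 (interval -0.11 to 1.18), -0.13 (interval -0.77 to 0.51) and 0.41 (interval -0.23 to 1.05) did not pass the test. The end of Igfbp7 overlaps that of Polr2b on the other strand, and strand use in the counting is not stated, so reads there cannot be told apart. Igfbp2 (ENSMUSG00000039323; chromosome 1, 72824503 to 72852474, plus strand), which faces Igfbp5 tail to tail at a distance of 5458 bases, had 3 and 0 in control, 5 and 5 in mdx, with 8 and 4 in Sirt6mKO/mdx. Its mean of 4.17 over 6 libraries was below the minimum of 5, and no difference could be detected at this depth.

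Per kb of exon, the summed level of the 6 binding protein genes was 1163 and 1458 in control, 1465 and 1206 in mdx, with 648 and 669 in Sirt6mKO/mdx. Control and mdx overlapped, and the Sirt6mKO/mdx libraries were lowest. Igfbp5 made up 63.6% and 69.2% of this sum in control, 51.0% and 59.0% in mdx, with 20.0% and 30.9% in Sirt6mKO/mdx. Igfbp3 took 0.80% and 2.06% in control, 12.5% and 10.6% in mdx, with 5.96% and 8.78% in Sirt6mKO/mdx. Igfbp4 held 22.4% and 20.6% in control, 12.9% and 14.8% in mdx, with 28.4% and 27.2% in Sirt6mKO/mdx. The share of Igfbp5 thus fell from the largest in all 4 control and mdx libraries to below that of Igfbp4 in Sirt6mKO/mdx replicate 1, and stayed above it in replicate 2. Igfbp7 reached 23.1% and 25.8% in Sirt6mKO/mdx, against 7.38% to 14.7% in the other libraries, without a call of its own, and Igfbp6 took 21.9% and 6.99% there. Shares add up to a fixed total, so a lower share of 1 gene raises the others.

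**Figure D4:**
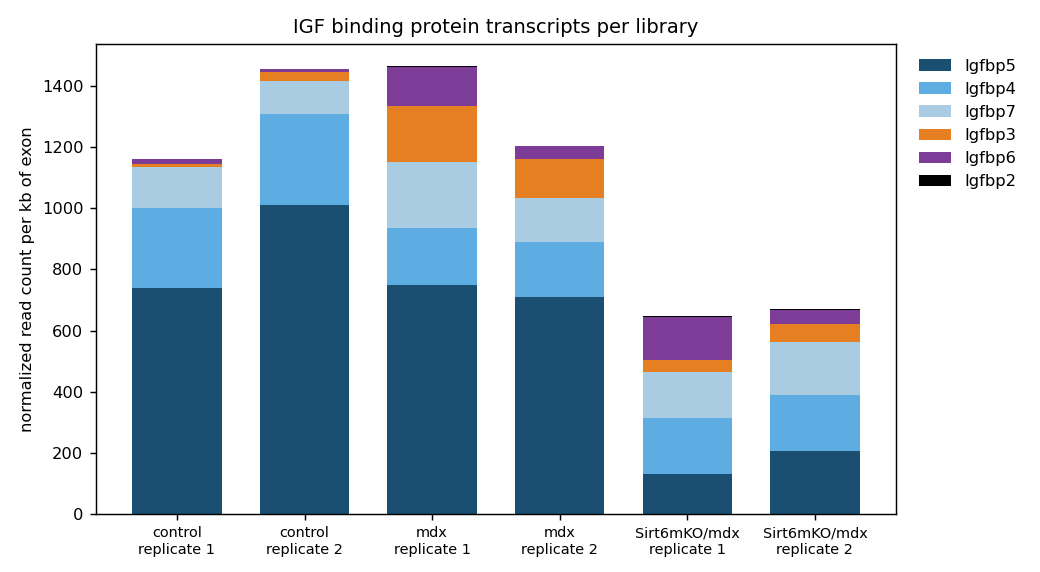
Stacked bars of the normalized read count per kb of exon (linear axis from 0) of the 6 binding protein genes in each library. The Sirt6mKO/mdx bars reach 648 and 669 and the other bars 1163 to 1465, and the Igfbp5 segment shrinks to 20.0% and 30.9% of the bar.

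The other genes of the pathway were followed in 8 lists of 76 genes, of which 74 were in the table and 68 were tested. Igfbp1 and Adam28 were not analysed here. The counts of calls that follow stand beside 14.2%, 8.17% and 7.87% of all genes called in the 3 comparisons, and nothing particular to these lists is read from them. In mdx against control 5 were called higher and 7 lower, in Sirt6mKO/mdx against mdx 4 were called higher and 0 lower, with 31 of 68 at a negative fold change, and in Sirt6mKO/mdx against control 3 higher and 6 lower. The median log2 fold changes were -0.19, 0.12 and -0.12 in this order. Among them, the ligand Igf2, the other IGF, showed the largest change in mdx against control. It had 621 and 686 in control, 7301 and 4419 in mdx, with 2637 and 3679 in Sirt6mKO/mdx. All mutant libraries were above control, by 3.12 in mdx (SE 0.31, adjusted p = 8.2e-06, limma) and by 2.25 in Sirt6mKO/mdx (SE 0.31, adjusted p = 0.00031, limma), and both calls held without any one library. Between Sirt6mKO/mdx and mdx, Igf2 differed by -0.87 (interval -1.52 to -0.22, adjusted p = 0.090, limma) and was not called. The insulin receptor gene Insr had 650 and 526 in control, 299 and 435 in mdx, with 610 and 622 in Sirt6mKO/mdx, the same order of mdx below the others as Igf1r and Irs2, but its log2 fold changes of -0.70 (adjusted p = 0.080, limma) in mdx against control and 0.77 (adjusted p = 0.077, limma) in Sirt6mKO/mdx against mdx did not pass the test. The clearance receptor gene Igf2r was not called in any comparison (-0.39, -0.42 and -0.81). Thus 1 of 5 tested genes of ligands, other receptors and carriers was called higher in each comparison with control and 0 in Sirt6mKO/mdx against mdx.

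Among genes that act on ligand supply, Adam12, a metalloprotease that cuts IGF binding proteins, had 106 and 116 in control, 251 and 375 in mdx, with 156 and 160 in Sirt6mKO/mdx, and was called higher in mdx against control (log2 fold change 1.46, adjusted p = 0.0036, limma), though not without mdx replicate 2 (1.17). Pappa, the gene of pappalysin-1, had 2 and 4 in control, 18 and 16 in mdx, with 34 and 30 in Sirt6mKO/mdx. It was called higher in Sirt6mKO/mdx against control (3.09, SE 0.75, adjusted p = 0.019, limma), though not without Sirt6mKO/mdx replicate 1 (3.0) or replicate 2 (3.18), and its counts in control are few. The secreted protease gene Htra1 was lower in that comparison (-1.72, adjusted p = 0.0092, limma), with 245 and 531 in control and 118 and 101 in Sirt6mKO/mdx, though not without control replicate 2 (-1.16) or Sirt6mKO/mdx replicate 2 (-1.60). In all, of 5 proteases and inhibitors tested, 1 was called in mdx against control, 0 in Sirt6mKO/mdx against mdx and 2 in Sirt6mKO/mdx against control, where 14.2%, 8.17% and 7.87% of all genes were called, and so few genes give no result for the group. In the growth hormone axis, which drives Igf1 in liver, the receptor gene Ghr rose in mdx (308 and 386 in control, 956 and 766 in mdx, log2 fold change 1.31, adjusted p = 0.0023, limma), though not without mdx replicate 1 (1.15). The transcription factor gene Stat5a had 763 and 368 in control, 117 and 243 in mdx, with 692 and 527 in Sirt6mKO/mdx. It fell in mdx (-1.65, adjusted p = 0.0070, limma) and rose from mdx to Sirt6mKO/mdx (1.83, adjusted p = 0.0066, limma). The fall was not called without control replicate 1 (-1.12) or mdx replicate 1 (-1.12), nor the rise without mdx replicate 1 (1.31), Sirt6mKO/mdx replicate 1 (1.64) or Sirt6mKO/mdx replicate 2 (2.03). No gene of this axis was called in Sirt6mKO/mdx against control, among 4 tested.

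Inside the cell, most calls were of PI3K regulatory subunits, FOXO factors and inhibitors, and few were of kinases. Of 17 tested genes of the AKT and mTOR branch 0 were called in mdx against control and in Sirt6mKO/mdx against mdx. Of 11 tested receptor adaptors other than Irs1 and Irs2, 0 were called in both comparisons with mdx, and the phosphatase gene Ptpn11 was called lower in Sirt6mKO/mdx against control (-1.16, adjusted p = 0.011, limma), though not without control replicate 2 (-1.04) or Sirt6mKO/mdx replicate 2 (-0.96).

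Of 6 PI3K subunit genes, the regulatory subunit genes Pik3r1 and Pik3r3 were called lower in both comparisons with control. Pik3r1 had 1334 and 1488 in control, 528 and 544 in mdx, with 667 and 560 in Sirt6mKO/mdx, with log2 fold changes of -1.39 (adjusted p = 0.0011, limma) and -1.20 (adjusted p = 0.0059, limma). Pik3r3 had 239 and 221, 107 and 96, and 99 and 93 in the same order, with -1.17 (adjusted p = 0.015, limma) and -1.25 (adjusted p = 0.018, limma). The mutant groups stayed below control in both genes. Between each other they overlapped in Pik3r3 and lay close without overlap in Pik3r1, where their difference of 0.19 (interval -0.32 to 0.70) did not pass the test. The fall of Pik3r1 in mdx held without any one library and that in Sirt6mKO/mdx did not hold without Sirt6mKO/mdx replicate 2 (-1.08). The calls of Pik3r3 did not hold without control replicate 1 (-1.12), mdx replicate 1 (-1.25) or mdx replicate 2 (-1.10) for mdx, nor without any of the 4 libraries compared for Sirt6mKO/mdx (-1.31 to -1.20).

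Of 7 tested AKT targets, 4 encode FOXO factors, and of these Foxo1 and Foxo3 were called. Foxo3 had 1879 and 1164 in control, 329 and 426 in mdx, with 825 and 765 in Sirt6mKO/mdx. It fell in mdx (-1.98, SE 0.27, adjusted p = 0.00018, limma), which held without any one library, and rose from mdx to Sirt6mKO/mdx (1.08, SE 0.27, adjusted p = 0.023, limma), which did not hold without any one of the 4 libraries compared (0.90 to 1.27). Foxo1, with 1192 and 1037 in control, 481 and 588 in mdx, against 449 and 439 in Sirt6mKO/mdx, was lower in both mutant groups (-1.06, adjusted p = 0.0075, and -1.32, adjusted p = 0.0031, limma). The first was not called without control replicate 1 (-0.96) or mdx replicate 1 (-0.92), the second not without Sirt6mKO/mdx replicate 2 (-1.31). Foxo3 thus showed the order of Irs2, with mdx lowest, and Foxo1 did not. Foxo4 had its higher values in mdx (382 and 333 in control, 562 and 574 in mdx, with 333 and 406 in Sirt6mKO/mdx), but mdx against control, at 0.67 on the log2 scale, did not pass the test (adjusted p = 0.074, limma). Foxo6, at 29 or below in every library, was not called either. Foxo4 and Foxo6 were named after their values were seen. The kinase gene Gsk3a rose from mdx to Sirt6mKO/mdx (198 and 175 against 480 and 352, log2 fold change 1.14, adjusted p = 0.030, limma), and this did not hold without any one of these 4 libraries (0.92 to 1.36).

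Of 13 tested negative regulators, Socs3, which inhibits cytokine and insulin receptor signalling, had 2414 and 1821 in control, 432 and 636 in mdx, with 2693 and 4302 in Sirt6mKO/mdx. It fell in mdx (-2.00, SE 0.30, adjusted p = 0.00040, limma) and rose in Sirt6mKO/mdx against mdx (2.70, SE 0.30, adjusted p = 6.1e-05, limma), and both calls held without any one library. Inpp4b, a phosphoinositide phosphatase gene, rose in mdx (23 and 38 in control, 126 and 80 in mdx, log2 fold change 1.73, adjusted p = 0.024, limma), though not without control replicate 1 (1.38), mdx replicate 1 (1.4) or mdx replicate 2 (2.05). Socs2 was called lower in Sirt6mKO/mdx against control (-1.0, adjusted p = 0.047, limma), a call that did not hold without any one of the 6 libraries (-1.33 to -0.68). In mdx against control Socs2 was called too (-1.05, adjusted p = 0.025, limma). There it lies outside the 10 largest changes that the naming rule takes, and it was named for that comparison after its values were seen.

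**Figure D5:**
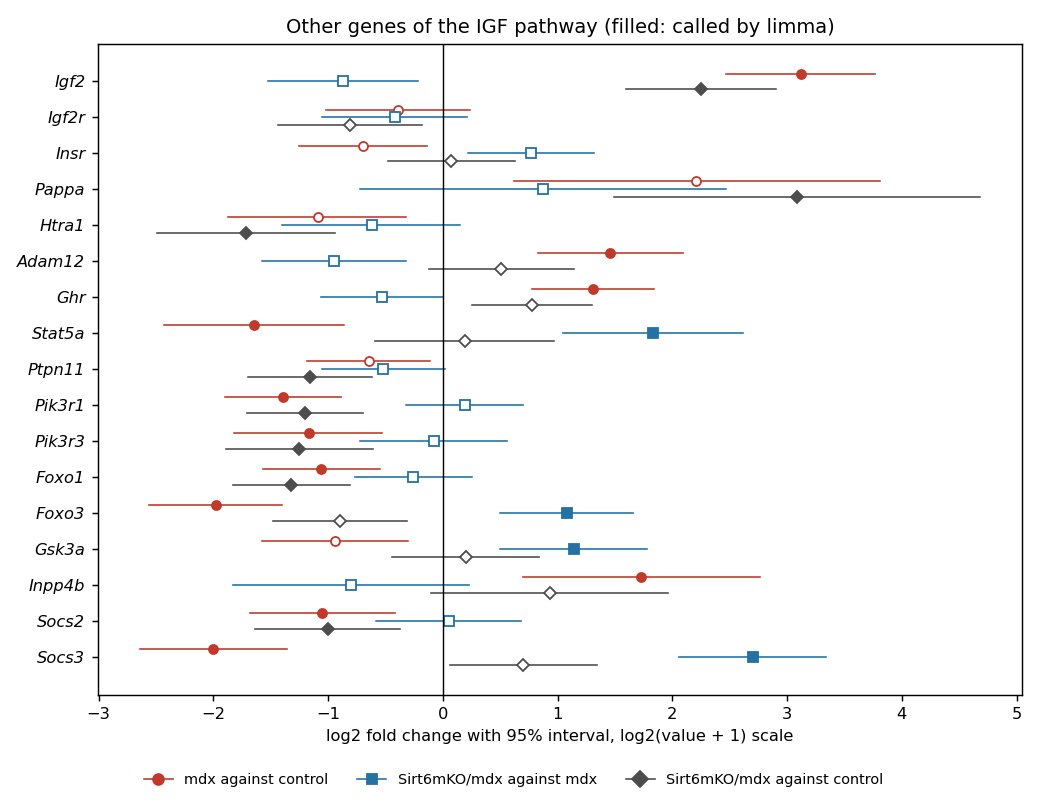
Log2 fold changes with 95% intervals (log2(value + 1) scale, limma) of other pathway genes in the 3 comparisons. Filled symbols are called. Igf2 lies at 3.12 and 2.25 in the comparisons with control, and Socs3 at -2.00 in mdx against control and 2.70 in Sirt6mKO/mdx against mdx.

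The genes whose values followed each called member most closely over the 6 libraries, among 9665 genes with a mean of at least 50, were named as a description, with Pearson's r of log2(value + 1). They were Srpr, Fermt2 and Papola for Igf1 (r from 0.991 to 0.996), Chka, Gm17056 and Dnajb6 for Irs2 (0.997 to 0.998), Col4a5, Cyp2j6 and Mrpl3 for Igfbp3 (0.996 to 0.997), Nmt1, Hnrnpr and Dnajc13 for Igfbp5 (0.988 to 0.998) and Hspb11, Inhbb and Tspan3 for Igfbp6 (0.979 to 0.993). No list holds another member or pathway gene. The 6 points share groups, depth and scaling, and with 9665 genes some will follow any pattern closely.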

How the data were processed

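RNA of sorted MuSCs was sequenced on an Ion Torrent instrument after removal of ribosomal RNA, in 2 libraries for each of control, mdx and Sirt6mKO/mdx. According to the methods of the study, cells that bind Sca1, CD45 or CD31 antibodies were depleted, and MuSCs were then sorted by Integrin-a7 and CD34 or by a fluorescent reporter. Which of these sorts gave each library is not stated. Per the labels, that is, the submitters' processing notes, the authors used FastQC 0.10.1, STAR 2.4.2a with GRCm38 and featureCounts 1.4.5-p1, and the methods of the study add trimming with Reaper and name another release of STAR. Strand use is not stated. The deposited values are whole numbers, reads that the authors had divided by a DESeq2 size factor for each library and rounded, so they were treated as a score (normalized reads) and compared on a log scale. The size factors were recovered from the skipped and doubled whole numbers, and values multiplied by them gave approximate reads.

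Here, log2(value + 1) was fitted with limma 3.58.1 in R 4.3.3, with a prior variance that follows the mean, all 6 libraries in 1 fit and no block. Genes with a mean of at least 5 were tested (15915 of 22706), and p-values were adjusted over all of them. Fold changes on this scale understate the change of low genes. The test was tested on simulated data. Gene positions and exonic lengths are from GENCODE mouse release M21 of GRCm38, which held 98.5% of the identifiers, and promoters from RefSeq, matched by symbol for all 10 genes.

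The members, gene lists and tests were chosen with earlier results of these data known, and the motifs after the promoter sequences were seen. Named were all members, the called pathway genes with at most 10 by absolute change in each comparison, Insr, Igf2 and Igf2r in any case, and for each called member the 3 genes of highest r. Some genes of the lists are counted but their own results are not reported here. Genes shown from marker lists were chosen after their values were seen. Marker lists not given with a member were those of MuSCs (of 12, 2 called lower in mdx against control, 1 higher in Sirt6mKO/mdx against mdx, 3 lower in Sirt6mKO/mdx against control) and of myofibres (10 genes, sums of 8219 and 9557 in control, 6275 and 2233 in mdx, 12421 and 5784 in Sirt6mKO/mdx). Of the myofibre markers 4 were called lower in mdx against control, 4 higher in Sirt6mKO/mdx against mdx and 0 in Sirt6mKO/mdx against control.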

Additional observations from a re-analysis of the deposited data

How the results depend on the processing

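With 2 libraries for each group, calls rest on a spread estimated over all genes. With 1 prior variance for all genes, the number of members called was 1 (Irs2) in mdx against control and 0 in both other comparisons, where all genes gave 541, 0 and 87 calls. Without a minimum mean it was 2 in mdx against control (Igfbp3, Irs2, with Igfbp6 no longer called at an adjusted p of 0.11 by limma), 2 in Sirt6mKO/mdx against mdx (Igfbp5, Irs2) and 1 in Sirt6mKO/mdx against control (Igfbp5), and all genes gave 989, 168 and 221 calls. A robust prior variance gave 3 members in mdx against control. It gave 2 (1 higher, 1 lower) in each comparison of Sirt6mKO/mdx, and voom on approximate reads gave 2 in Sirt6mKO/mdx against control. Leaving out 1 library at a time gave 2 to 4 members in mdx against control, 2 to 4 in Sirt6mKO/mdx against mdx and 1 to 3 in Sirt6mKO/mdx against control, and 921 to 2326, 252 to 1541 and 212 to 1416 called genes in all.

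Scaling every library to an equal total moved the median log2 fold change of all genes to -0.59 in both comparisons of Sirt6mKO/mdx. All genes called there were then 478 higher and 2937 lower against mdx (895 and 405 as deposited) and 454 higher and 2696 lower against control (826 and 427 as deposited). With it, Igf1r (-0.04) and Igfbp6 (-0.46) changed sign against mdx, and Irs1 (-0.53), Igfbp7 (-0.19) and Insr (-0.53) against control. Relative to that shift these 5 genes kept their sign. Irs2 (-1.51) and Igfbp4 (-1.21) were then called against control, Igf2 (-1.49) against mdx, and Igfbp3 against control (0.89), and Foxo3 (0.46) and Gsk3a (0.51) against mdx were not. Leaving out 1 library changed the sign of uncalled values of Igf1 in mdx against control (-1.04 to 0.71), Igfbp4 (-0.05 to 0.04), Igfbp7 (-0.42 to 0.17) and Igfbp6 (-0.63 to 0.95) in Sirt6mKO/mdx against mdx and Insr in Sirt6mKO/mdx against control (-0.08 to 0.23). The causes were not tested.

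By the replicate numbers of the labels, deviations of same-numbered libraries from their group means were correlated over all genes tested. The r was -0.13 (control and mdx), 0.01 (mdx and Sirt6mKO/mdx) and 0.12 (control and Sirt6mKO/mdx). Such values over all genes do not show a pairing and cannot exclude one that touches few genes. With the replicate number as a block the same 3, 4 and 4 members were called, and all genes gave 2415, 1510 and 1404 calls. A crossed block for mdx against control, added after the data were seen, gave 1196 higher and 1323 lower calls against 1094 and 1190 with the block as labelled. Of 1010 values of single genes under the alternatives, 860 kept their direction and side of the threshold, 131 lost their call, 7 gained a call and 12 changed sign. Only the 2 groups compared in the fit gave 829 called genes in Sirt6mKO/mdx against control. Depth limits what can be said of Igfbp2 and Pappa, whose values were 34 or below in every library.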
